A study of Mus musculus with 6 samples.

Results

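Endothelial and mural cells build the blood vessels that run through a sympathetic ganglion, and 10 genes that mark them were followed across its arrays. The endothelial genes were Pecam1, Cdh5, Kdr, Flt1 and Egfl7, and the mural genes, which mark smooth muscle cells and pericytes, were Acta2, Tagln, Myh11, Pdgfrb and Abcc9. Members were all probe sets of the array annotated with exactly 1 of these gene symbols, which gave 23 of 45101 probe sets, 12 endothelial and 11 mural, for 10 of 18194 genes named in this way. The array was a mouse genome GeneChip, on which a probe set is a group of short probes that together measure 1 transcript.

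The 3 TAC animals were male C57/Bl6 mice examined 8 weeks after transverse aortic constriction, a narrowing of the aortic arch that loads the left ventricle. The 3 sham animals were males of the same strain, examined 8 weeks after a sham operation. RNA of both stellate ganglia of 1 animal went onto 1 array, and the titles give a letter (A, B or C) to each array. No animal age and no number of surgery rounds are given in the sources used here. The sample was whole ganglion, so a vessel transcript was read in a mixture of cell types. In such bulk samples fewer cells of a type and less RNA per cell cannot be told apart.

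Endothelial cells line the lumen and are held together by junction proteins such as PECAM-1 and VE-cadherin, and they sense vascular endothelial growth factor through a pair of receptor tyrosine kinases. Mural cells wrap the endothelium. Smooth muscle cells of arterioles carry a contractile apparatus of smooth muscle actin, myosin and their partners, and pericytes of capillaries carry the PDGF-B receptor and a vascular ATP-sensitive potassium channel. Sympathetic ganglia are densely vascularised.

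Values are log2 probe set intensities, and a probe set with a mean log2 under 4 over the 6 arrays was marked as dim and not tested. Of the 23 probe sets, 14 were dim, 7 in each class, and 9 were tested. For 4 of the 10 genes, Pecam1, Cdh5, Kdr and Myh11, every probe set was dim. A dim probe set gives only an upper bound on its signal and does not show that its gene was silent. Closest to the floor from above was a Flt1 probe set with a mean of 4.20, and closest from below was a Pdgfrb probe set at 3.47. The tested endothelial genes were thus Flt1 and Egfl7, and the tested mural genes Acta2, Tagln, Pdgfrb and Abcc9. The brightest tested probe set of a gene stood for it.

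**Figure D1:**
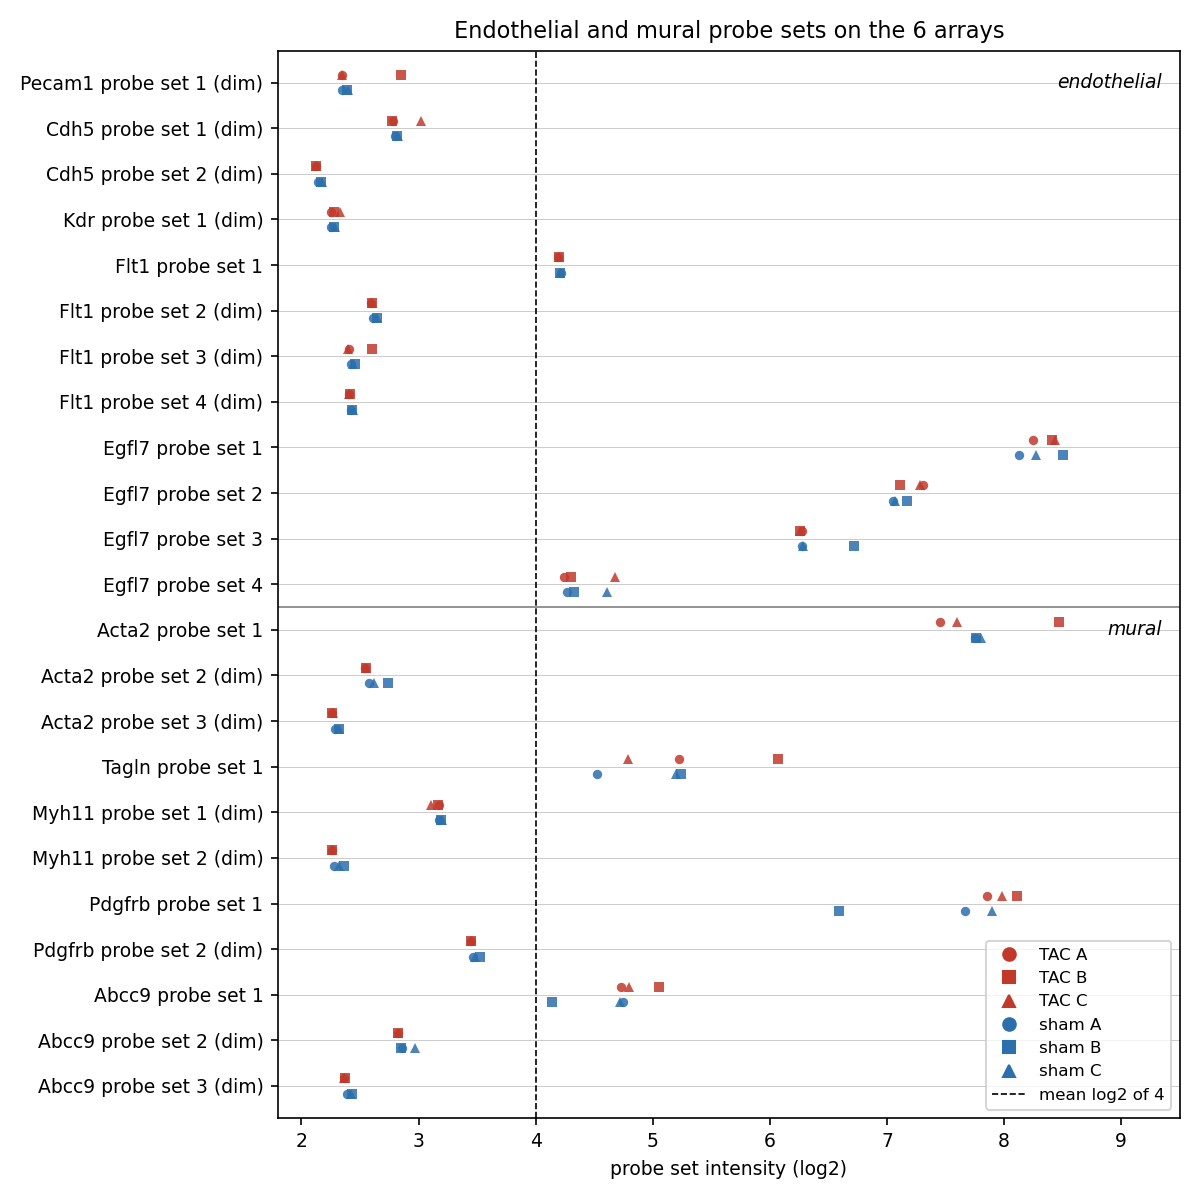
Log2 intensity (x axis) of each of the 23 probe sets (rows, numbered within a gene from bright to dim) on the 3 TAC arrays (red, upper points of a row) and the 3 sham arrays (blue, lower points), with the letter of an array as the marker shape. The dashed line is the floor at a mean log2 of 4, which 14 probe sets did not reach, and Egfl7, Acta2 and Pdgfrb lay well to the right of it.

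No member differed between TAC and sham ganglia by limma with Benjamini-Hochberg adjustment over all 17550 tested probe sets, of which 0% were called at an adjusted p under 0.05. Of the 6 tested genes 0 were called, and 0 had an unadjusted p under 0.05. Over all tested probe sets 6.03% were higher and 3.05% lower in TAC at that unadjusted level. The adjusted p of the 6 genes ran from 0.589 to 0.960. The 4 mural genes all had a higher mean in TAC, with a median log2 difference of 0.35. The 2 endothelial genes, Flt1 at -0.013 and Egfl7 at 0.065, had a median of 0.026. That median was -0.010 with quantile normalization and -0.020 with median centring. All tested probe sets also had a median of 0.026, with 56.1% of means higher in TAC. The median of the mural genes was 0.12 without TAC B and 0.16 without sham B, and Acta2 had a lower mean in TAC once TAC B was left out.

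Among the endothelial genes, Egfl7 was the one measured clearly above the floor. It encodes a secreted protein of the vessel matrix that endothelial cells deposit around themselves. Its brightest probe set, 1451428_x_at, read 8.25, 8.41 and 8.44 on TAC A, B and C, against 8.13, 8.50 and 8.28 on sham A, B and C. The groups overlapped, with the highest and the lowest value both on sham arrays. The TAC minus sham difference was 0.065 (SE 0.12, 95% confidence interval -0.22 to 0.35, limma adjusted p = 0.862), and it was -0.022 without sham A and 0.16 without sham B. An ending of _x_at or _s_at is the maker's mark for a probe set whose probes may also read other transcripts.

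The other 3 probe sets of Egfl7 were also tested and did not pass either. The second, 1451427_a_at, read 7.31, 7.11 and 7.29 on TAC A, B and C and 7.06, 7.17 and 7.07 on sham A, B and C, a difference of 0.14 (SE 0.087). The third, 1435823_x_at, was at -0.16 (SE 0.13), with 6.72 on sham B and 6.26 to 6.28 on the other 5 arrays. The fourth, 1421335_a_at, was at 0.0056 (SE 0.15), and its highest values were 4.67 on TAC C and 4.61 on sham C. The 4 probe sets thus had 3 positive differences and 1 negative one, and their highest array was sham B for the brightest and the third, TAC A for the second and TAC C for the fourth.

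An intron of Egfl7 holds the endothelial microRNA miR-126, which damps inhibitors of growth factor signalling in vessels. The array reads the host transcript and not the mature microRNA. The RefSeq sequence of its 3p form (GRCm38.p6, chr2:26591402-26591423, plus strand) is shown because it is another known product of the brightest endothelial member. The capitals mark the seed, bases 2 to 8.
mmu-miR-126a-3p: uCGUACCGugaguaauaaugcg

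Flt1 encodes VEGF receptor 1, which binds the growth factor tightly and signals weakly, and so limits what reaches the main receptor. Its brightest probe set, 1451756_at, read 4.195, 4.199 and 4.201 on TAC A, B and C, against 4.213, 4.210 and 4.211 on sham A, B and C. Every TAC array lay below every sham array, but the 6 values spanned only 0.018 on the log2 scale. The difference was -0.013 (SE 0.067, limma adjusted p = 0.960). The same order of groups held for 8.85% of all tested probe sets. The other 3 Flt1 probe sets were dim, with values from 2.40 to 2.64.

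Kdr, the main signalling receptor for VEGF on blood vessels, had 1 probe set, which read 2.25, 2.28 and 2.33 on TAC A, B and C and 2.25, 2.28 and 2.28 on sham A, B and C. Cdh5, the VE-cadherin of endothelial junctions, read 2.78, 2.78 and 3.02 on TAC A, B and C with its brighter probe set, and 2.80, 2.82 and 2.83 on sham A, B and C. TAC C was the highest array for both. Pecam1, the junction and leukocyte adhesion molecule also called CD31, read 2.34, 2.85 and 2.34 on TAC A, B and C and 2.35, 2.39 and 2.40 on sham A, B and C. TAC B stood 0.45 above the next array there, and was itself far under the floor.

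In 10 of the 14 dim member probe sets every TAC array lay below every sham array, and in 0 every TAC array lay above. These were probe sets of Cdh5, Flt1, Acta2, Myh11, Pdgfrb and Abcc9, with differences down to -0.10. The same order was seen in 71.6% of all 27487 dim probe sets, where the median difference was -0.041, so the members' share of 71.4% was at the background. Among the tested probe sets it was 8.85%.

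The label of endothelium therefore rested on few readings. Of 9 marker genes of blood endothelium, the 5 members plus Tek, Tie1, Cldn5 and Emcn, 5 were dim: Pecam1, Cdh5, Kdr and the receptor genes Tek and Tie1. The summed linear intensity of the 9 was 401 to 467 on the TAC arrays and 367 to 456 on the sham arrays, and most of it came from Egfl7. Of a wider list of 22 endothelial genes, 14 were read above the floor and 7 were dim. The dim ones were Tek, Tie1, Robo4, Sox18, Erg, Icam2 and Clec14a. Among the 14 was Vwf, the clotting protein stored in endothelial granules. It read 6.84 to 7.47 on the TAC arrays and 7.02 to 7.28 on the sham arrays. Ptprb, the phosphatase that restrains the angiopoietin receptor, read 6.77 to 7.21 on the TAC arrays and 6.58 to 7.003 on the sham arrays.

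The mural label was checked on 10 marker genes, the 5 members plus Rgs5, Cspg4, Des, Kcnj8 and Notch3, of which 4 were dim (Myh11, Des, Kcnj8 and Notch3). Their summed linear intensity was 2974 on TAC B and 2138 to 2296 on the other TAC arrays, against 2002 to 2075 on the sham arrays. Most of it came from Rgs5, so the sums mainly followed 1 gene. In Rgs5 every TAC array lay above every sham array, as in 9.02% of all tested probe sets. Of the 6 markers above the floor, 5 had a higher and 1 a lower mean in TAC, and 0 were called.

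Among the mural genes, Acta2 encodes smooth muscle alpha-actin, the main thin filament protein of vascular smooth muscle. Its brightest probe set, 1416454_s_at, read 7.45, 8.47 and 7.60 on TAC A, B and C, against 7.75, 7.76 and 7.80 on sham A, B and C. The sham arrays were nearly equal, while TAC B was above and TAC A and C below all of them. The means were 7.84 ± 0.55 in TAC and 7.77 ± 0.03 in sham (SD, n = 3 each), a difference of 0.070 (SE 0.26, 95% confidence interval -0.56 to 0.70, limma adjusted p = 0.939). The difference was -0.25 without TAC B, 0.26 without TAC A and 0.19 without TAC C. The other 2 probe sets of Acta2 were dim, at 2.26 to 2.74.

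Smooth muscle actin is a textbook target of serum response factor, which binds a DNA element called the CArG box. The stretch below, from the RefSeq promoter window of Acta2 (GRCm38.p6, chr19:34255378-34255477, minus strand), covers positions -104 to -5 before the annotated start used for that window. The annotated span of the gene reaches further upstream, to position 34255585, so the stretch lies inside that span. The stretch is shown because Acta2 is a known target of that factor, and a part of the factor in the values of Acta2 was not tested. The capitals mark a pair of CArG-like matches that have 1 C or G among the 6 letters that are A or T in the full element.
Acta2 promoter: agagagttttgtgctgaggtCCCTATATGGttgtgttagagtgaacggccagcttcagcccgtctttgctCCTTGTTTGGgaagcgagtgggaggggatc

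The element reads the same on both strands. Of all 32851 RefSeq windows of 300 bases, 8.50% held such a CArG-like match and 1.63% a full CArG box. Windows were at hand for 5 of the 10 genes, Egfl7, Kdr, Flt1, Abcc9 and Acta2, with 7 windows in all because Egfl7 has 3 annotated starts. None of the 7 held a full CArG box, and CArG-like matches lay in the windows of Acta2, Kdr and 1 start of Egfl7. A match is a description of these letters and not a measured binding site. Srf itself, the gene of that factor, read 6.27, 6.36 and 6.34 on TAC A, B and C and 6.31, 6.27 and 6.20 on sham A, B and C, a difference of 0.067 (limma adjusted p = 0.765). Its smooth muscle coactivator gene Myocd was dim on every array, at 2.43 to 2.53.

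Tagln encodes transgelin, or SM22, an actin-binding protein of smooth muscle. It read 5.22, 6.07 and 4.79 on TAC A, B and C, against 4.52, 5.24 and 5.20 on sham A, B and C. TAC B was highest and sham A lowest, and the other 4 arrays lay between 4.79 and 5.24 with both groups mixed. The difference was 0.37 (SE 0.36, 95% confidence interval -0.49 to 1.23, limma adjusted p = 0.724), and it was 0.018 without TAC B, 0.14 without sham A and 0.66 without TAC C. Its range of 1.55 was the widest of the tested members. Myh11, the myosin heavy chain of differentiated smooth muscle, had a pair of dim probe sets, the brighter at 3.17, 3.16 and 3.11 on TAC A, B and C and at 3.18, 3.19 and 3.20 on sham A, B and C.

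Pdgfrb encodes the receptor by which pericytes answer PDGF-B from the endothelium. Its tested probe set, 1436970_a_at, read 7.85, 8.11 and 7.98 on TAC A, B and C, against 7.66, 6.59 and 7.90 on sham A, B and C. Sham B stood 1.07 below the next array, and the other 5 arrays lay within 0.45 of each other. The difference was 0.60, or 1.51-fold (SE 0.33, 95% confidence interval -0.20 to 1.40, limma adjusted p = 0.589), and without sham B it was 0.20. A second Pdgfrb probe set was dim, at 3.45 on each TAC array and 3.46 to 3.52 on the sham arrays.

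Abcc9 encodes SUR2, the regulatory subunit of the vascular ATP-sensitive potassium channel, which in pericytes pairs with the pore subunit of Kcnj8. Its brightest probe set, 1435752_s_at, read 4.73, 5.05 and 4.80 on TAC A, B and C, against 4.75, 4.14 and 4.72 on sham A, B and C. As for Pdgfrb, TAC B was highest and sham B lowest. The difference was 0.32, or 1.25-fold (SE 0.19, 95% confidence interval -0.13 to 0.78, limma adjusted p = 0.600), and without sham B it was 0.13. The pore gene Kcnj8 was dim at 2.56 to 2.71. Of the other channel genes, Kcnj11, a pore subunit, read 8.22 to 8.26 on the TAC arrays and 8.20 to 8.26 on the sham arrays, a difference of 0.0016 (limma adjusted p = 0.995), and the regulatory subunit gene Abcc8 was dim.

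**Figure D2:**
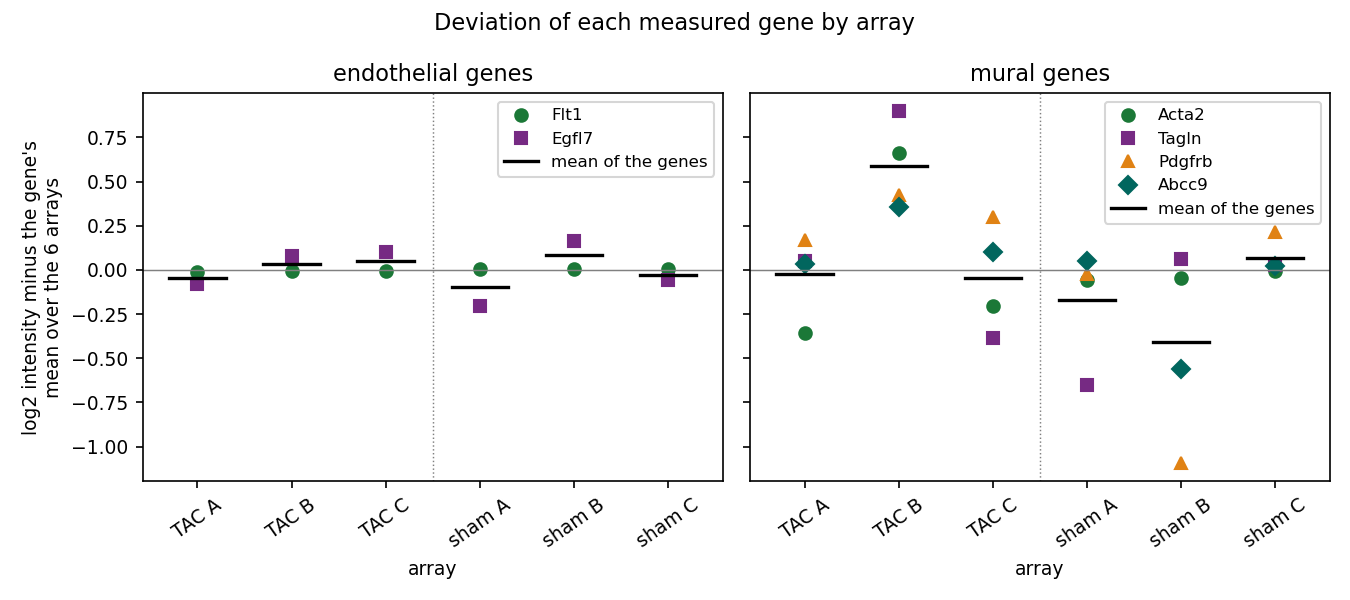
Log2 intensity minus the mean of the gene over the 6 arrays (y axis) for the tested endothelial genes (left) and mural genes (right), by array (x axis, TAC left of the dotted line and sham right of it), with black bars for the mean of the genes. All 4 mural genes were highest on TAC B, where their mean deviation was 0.59, and their mean was lowest on sham B at -0.41. The mean of the 2 endothelial genes stayed between -0.10 and 0.09. Flt1 hardly varied, and Egfl7 alone ran from -0.21 on sham A to 0.17 on sham B. A wider endothelial list, not drawn here, had its highest mean on TAC B too, at 0.30.

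Array TAC B was the highest for 4 of 4 tested mural genes and for 0 of the 2 tested endothelial genes. It was also the highest for 8 of 14 tested genes of a wider endothelial list, among them Emcn, Cldn5, Esam and Ramp2, and for 26.7% of all tested probe sets. The high values on TAC B were thus not limited to the mural genes. The mean deviation of the mural genes was -0.026, 0.59 and -0.048 on TAC A, B and C and -0.17, -0.41 and 0.066 on sham A, B and C. That of Flt1 and Egfl7 was -0.046, 0.036 and 0.049 on TAC A, B and C and -0.099, 0.086 and -0.026 on sham A, B and C. Flt1 hardly varied, so this mean was smaller than the deviation of Egfl7 alone, which ran from -0.21 on sham A to 0.17 on sham B. On TAC B the mean deviation was 0.30 for the wider endothelial list and 0.37 both for the 9 endothelium markers and for the 10 mural markers, counting the genes above the floor. The mural genes had ranges of 0.91 to 1.55 over the 6 arrays, the 14 genes of the wider endothelial list 0.12 to 1.58, Egfl7 0.37 and Flt1 0.018, beside a median range of 0.44 over all tested probe sets. Within the mural genes, Pdgfrb and Abcc9 were lowest on sham B, Tagln on sham A and Acta2 on TAC A.

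Array TAC B also stood apart in markers of other cells. The 3 brown fat genes above the floor were high on TAC B and on sham C. Ucp1, which uncouples respiration in brown adipocytes, read 3.72, 6.82 and 3.60 on TAC A, B and C and 3.98, 4.64 and 8.53 on sham A, B and C. The summed linear intensity of the 4 brown fat markers with a probe set was 672 on TAC B and 300 to 317 on the other TAC arrays, against 1400 on sham C and 334 to 396 on the other sham arrays. Of these markers Elovl3 was dim throughout. The 5 white fat markers with a probe set summed to 5224 on TAC B and 1573 to 1839 on the other TAC arrays, against 8106 on sham C and 2144 to 2221 on the other sham arrays. Lep and Retn among them were dim. Skeletal muscle markers, 4 of 9 above the floor, summed to 102 to 270 on the TAC arrays and 82.7 to 1385 on the sham arrays. The mural mean deviation was 0.59 on TAC B and 0.066 on sham C. The part of fat and skeletal muscle in the mural values was not tested.

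Satellite glia, lymphatic and fibroblast markers were lower on TAC B than on most arrays. The 5 glial markers summed to 10092 on TAC B and to 15204 to 15565 on the other TAC arrays, against 15853 to 18908 on the sham arrays. Most of each glial sum came from Fabp7, and 2 of the 5 genes had a higher and 3 a lower mean in TAC. The 5 lymphatic endothelial markers, of which only Pdpn and Reln were above the floor, summed to 426 on TAC B and to 612 to 784 on the other TAC arrays, against 635 to 712 on the sham arrays. Both of these genes are also known from other cell types. Fibroblast markers summed to 10077, 8140 and 7318 on TAC A, B and C and 8301 to 8664 on the sham arrays, so their lowest sum was on TAC C. Sympathetic neuron markers summed to 99247 to 105204 on the TAC arrays and 87630 to 96418 on the sham arrays. Of the 7 tested neuron markers, 3 had a higher and 4 a lower mean in TAC, with a median difference of -0.020. The largest difference among them was that of Npy, at 0.77. The part of glia, lymphatic cells, fibroblasts and neurons in the vessel values was not tested either. Markers of red blood cells, which vessels hold, had a lower sum on each TAC array than on any sham array. The 3 with a probe set summed to 36.5 to 85.8 on the TAC arrays and 91.9 to 140.0 on the sham arrays. Hba-a1 was dim and Hbb-b1 had no probe set with that symbol alone, so neither globin gene of the list was read above the floor. Slc4a1, the anion exchanger of red cells, read 4.63, 5.69 and 5.93 on TAC A, B and C, against 6.24, 6.43 and 6.06 on sham A, B and C. Every TAC array thus lay below every sham array for Slc4a1, as for 8.85% of all tested probe sets. The difference of Slc4a1 was -0.82 (SE 0.33, limma adjusted p = 0.546), and Alas2, the heme enzyme of red cell precursors, overlapped between groups. The 6 macrophage markers, 4 of them above the floor, summed to 911 to 1071 on the TAC arrays and 938 to 1155 on the sham arrays, and 4 of 5 heart muscle markers were dim. The part of these cells in the vessel values was not tested.

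Without TAC B and sham C, the mural median was 0.22 and 3 of 4 mural genes had a higher mean in TAC.

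**Figure D3:**
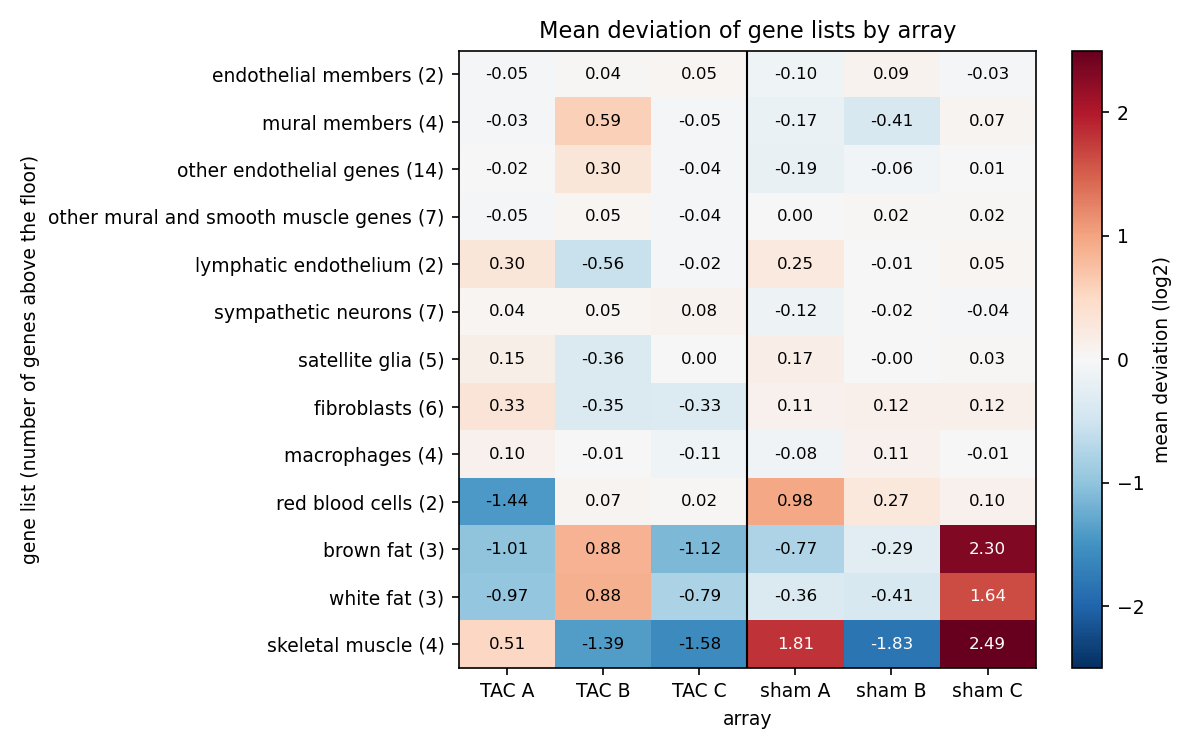
Mean deviation (colour and printed value, log2) of the genes of each list from their means over the 6 arrays, by array (x axis, TAC left of the line and sham right of it), with the number of genes above the floor in brackets. The mural row has its highest value on TAC B, where both fat rows are also above 0, and both fat rows have their highest value on sham C.

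A wider list of 22 endothelial genes had 14 tested, 7 dim and 1 with no probe set, and 0 of the 14 were called. Their median log2 difference was 0.14, and 12 of 14 had a higher mean in TAC, beside 56.1% of all tested probe sets. Without TAC B the median was 0.047, with 9 of 13 higher, and without sham A it was 0.037, with 10 of 14 higher. Smallest in p were the genes of the junction and surface proteins Esam, Emcn and Cldn5 and of the glucose transporter Slc2a1.

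Esam, an adhesion molecule of endothelial tight junctions, read 5.75, 6.46 and 5.88 on TAC A, B and C, against 5.83, 5.05 and 5.47 on sham A, B and C. It shared with Pdgfrb and Abcc9 the highest value on TAC B and the lowest on sham B, and its difference was 0.58 (SE 0.26, limma adjusted p = 0.553). Emcn, the sialomucin endomucin of capillary and venous endothelium, read 4.74, 5.38 and 4.40 on TAC A, B and C, against 4.29, 4.46 and 4.18 on sham A, B and C. Its difference of 0.53 (SE 0.25, limma adjusted p = 0.556) came with groups that overlapped at TAC C and sham B. Cldn5, the claudin of endothelial tight junctions, was at 0.33 (SE 0.20, limma adjusted p = 0.617), with TAC B at 4.96 and the other 5 arrays at 4.01 to 4.32, and Slc2a1 was at 0.14 (SE 0.11). Without TAC B the differences were 0.37 for Esam, 0.26 for Emcn, 0.10 for Cldn5 and 0.051 for Slc2a1, and without sham B that of Esam was 0.38.

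A wider list of 23 mural and smooth muscle genes had 7 tested and 16 dim, and 0 were called. Their median was -0.11, with 3 higher and 4 lower means in TAC, and -0.044 without TAC C. With a floor of 6 it turned to 0.14, with 3 higher and 2 lower. Mcam, Tpm2 and Cspg4 had an unadjusted p under 0.05, 1 higher and 2 lower in TAC, beside 6.03% higher and 3.05% lower of all tested probe sets. In 2 of the 7, Mcam and Rgs5, every TAC array lay above every sham array, and in 3, Cspg4, Tpm2 and Tpm1, below, beside 9.02% above and 8.85% below of all tested probe sets.

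Mcam, an adhesion molecule of pericytes, smooth muscle and endothelium also called CD146, read 10.65, 10.91 and 10.95 on TAC A, B and C, against 10.53, 10.43 and 10.39 on sham A, B and C. The groups did not overlap, and the difference of 0.38 (SE 0.10, 95% confidence interval 0.13 to 0.63) did not pass over all probe sets (limma adjusted p = 0.516). Rgs5, a regulator of G-protein signalling and a common pericyte marker, read 10.60, 11.07 and 10.71 on TAC A, B and C, against 10.44, 10.59 and 10.48 on sham A, B and C. TAC B was again highest, TAC A and sham B were nearly equal, and the difference was 0.29 (SE 0.13, limma adjusted p = 0.556), or 0.15 without TAC B.

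Cspg4, the NG2 proteoglycan of pericytes and also of glial precursors, ran the other way. It read 6.38, 5.85 and 6.27 on TAC A, B and C, against 6.74, 6.59 and 6.42 on sham A, B and C, with its lowest value on TAC B. The difference was -0.42 (SE 0.16, limma adjusted p = 0.546), or -0.26 without TAC B. Tpm2, a tropomyosin of muscle thin filaments, read 5.70, 5.76 and 5.70 on TAC A, B and C, against 5.83, 6.18 and 6.23 on sham A, B and C, a difference of -0.36 (SE 0.12, limma adjusted p = 0.542). Among the dim genes of that list were the contractile genes Cnn1, Lmod1 and Actg2 and the intermediate filament gene Des, at 2.17 to 3.19 on all arrays. Of the contractile and actin-binding genes of the members and that list, Acta2, Tagln, Cald1, Tpm1, Tpm2 and Myl9 were thus read above the floor. The mean over the 6 arrays was 9.84 for Cald1, 9.40 for Tpm1, 5.90 for Tpm2 and 5.16 for Myl9. Myh11, Cnn1, Lmod1, Actg2, Mylk and Smtn were dim.

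Of 31 ligands, receptors and regulators of vessel growth, 18 were tested, 11 were dim and 2 had no probe set, and 0 were called. Their median was -0.067, with 5 higher and 13 lower means in TAC, beside 56.1% of all tested probe sets that were higher. The median was -0.023 without TAC C, with 8 higher and 10 lower, -0.025 without sham A, -0.14 without sham B and -0.11 without sham C. It was -0.12 with quantile normalization and -0.11 with median centring. Smallest in p were Tgfbr2, Ednrb, Pdgfa and Aplnr, with differences of 0.23 (SE 0.098), -0.69 (SE 0.30), -0.15 (SE 0.080) and -0.65 (SE 0.39). Tgfbr2, a receptor of transforming growth factor beta, was higher on each TAC array, at 7.72 to 8.02, than on the sham arrays at 7.65 to 7.67 (limma adjusted p = 0.549). Of the 18 tested genes, 1 had every TAC array above and 1, Pdgfa, every TAC array below every sham array. These orders held for 9.02% and 8.85% of all tested probe sets. Ednrb, an endothelin receptor of endothelium and glia, read 9.41, 8.18 and 8.80 on TAC A, B and C, against 9.69, 9.47 and 9.29 on sham A, B and C. TAC B, its lowest array, was also the lowest for the summed glial markers. Pdgfb, the ligand of Pdgfrb, was dim, while its relative Pdgfa read 7.96 to 8.05 on the TAC arrays and 8.05 to 8.21 on the sham arrays. Aplnr, the apelin receptor of growing vessels, overlapped between groups. Without TAC B the differences of Ednrb and Aplnr were -0.37 and -0.38, and without sham B that of Aplnr was -1.003.

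**Figure D4:**
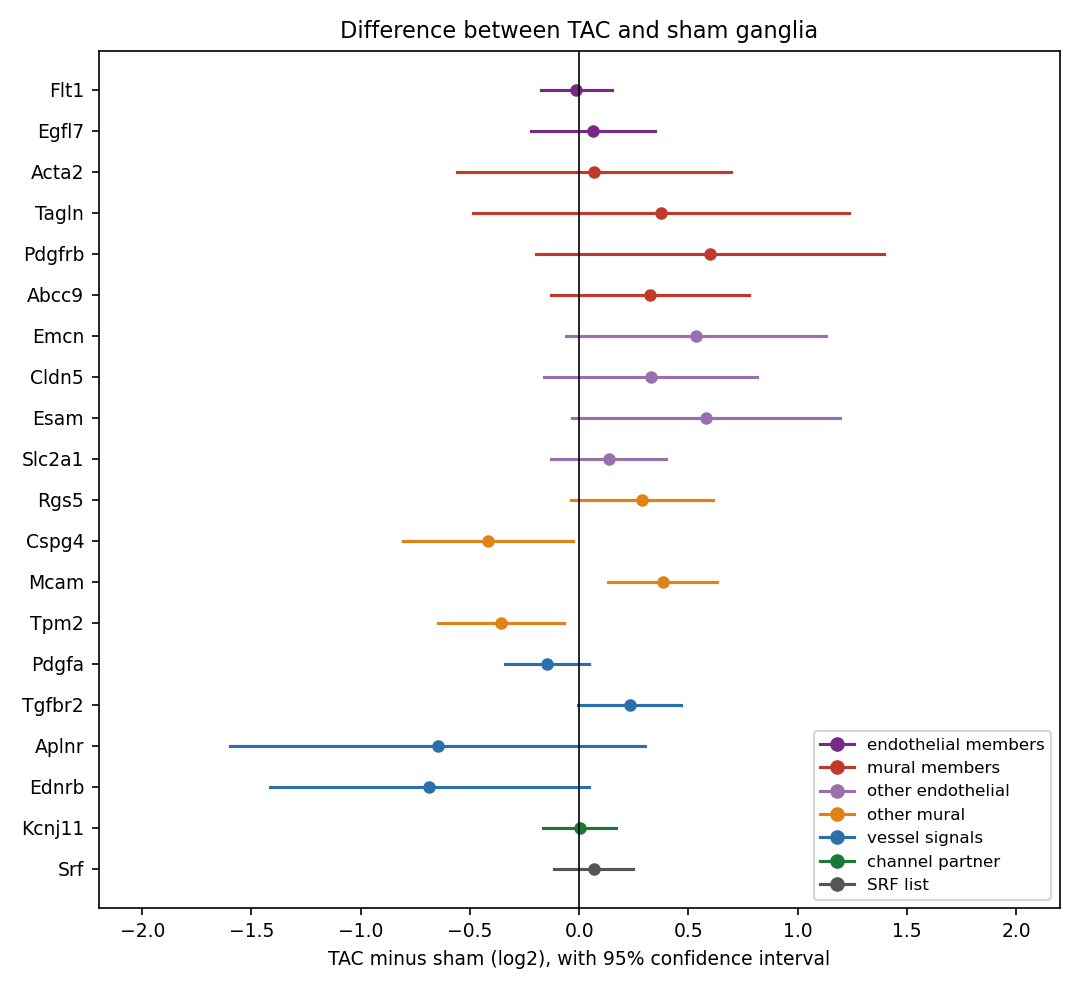
TAC minus sham difference (x axis, log2) with its 95% confidence interval from limma for the 6 tested members and the genes of smallest p from each further list (rows, coloured by list). The intervals of all 6 members cover 0, those of Flt1 and Egfl7 are narrower than those of the mural genes, and the intervals of Mcam, Cspg4 and Tpm2 do not cover 0 before adjustment.

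The genes whose pattern over the 6 arrays lay nearest to that of a member were found by the root mean square difference of values centred on each gene's mean, over 15980 candidate probe sets. Nearest to Tagln, the mural member of widest range, were Mertk at 0.095, Ramp2 at 0.12 and Epb41l4b at 0.12 on the log2 scale. Ramp2, the receptor partner of adrenomedullin signalling in endothelium, read 7.41, 8.20 and 7.13 on TAC A, B and C, against 6.61, 7.50 and 7.62 on sham A, B and C, so that it too was highest on TAC B and lowest on sham A. Mertk, a phagocytic receptor kinase, read 6.04, 6.76 and 5.71 on TAC A, B and C, against 5.29, 6.12 and 6.18 on sham A, B and C. Nearest to Egfl7 were Isca2 at 0.018, Eif2d at 0.022 and Rab3a at 0.029, 3 genes with ranges of 0.32 to 0.35. With 6 arrays and so many candidates, some close matches arise in any case.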

How the data were processed

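Intensities of 45101 probe sets, 64 of them controls, were deposited for 3 TAC and 3 sham arrays. The authors made them with GCRMA, per the submitters' processing notes, on a linear scale. The sources used here state neither its version nor its settings. GCRMA compresses values near background, so folds of low probe sets are uncertain.

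For the fits, log2 was taken of each deposited intensity, without a pseudocount or rescaling. Probe sets with a mean log2 under 4 were left out, which left 17550. TAC was compared with sham by limma 3.58.1 in R 4.3.3 (lmFit, eBayes, two-sided tests). P-values were adjusted by Benjamini-Hochberg across these 17550, with a threshold of 0.05. Standard errors and 95% confidence intervals are limma's moderated ones. The number of arrays limits the precision, and the labels give each array as 1 animal. The fit was tested on simulated data.

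Gene symbols came from GEO's platform annotation, where 34958 probe sets had 1 symbol, and 0 probe sets with several symbols named a member. The members and lists were chosen with earlier results of these data known. All probe sets of members are described, and from each further list up to 4 genes of smallest p. Cell type markers are given as whole lists, and single dim genes, Vwf and Ptprb were named with their values seen. All arrays correlated at 0.980 to 0.994. Median intensities over all probe sets, on the linear scale and not as log2, were 7.82 to 7.85 on the TAC arrays and 7.97 to 8.45 on the sham arrays. Alternatives covered the floor, variance model, array weights, scaling, probe set choice, letter block and each array left out. Figures were drawn with matplotlib 3.10.9.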

Additional observations from a re-analysis of the deposited data

How the results depend on the processing

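None of the 16 alternatives called a member. Their smallest limma adjusted p was 0.273, with no floor, where the dim members were fitted too. For the 6 tested genes the smallest limma adjusted p was 0.296, and 83 of 87 of their differences kept their sign. Many of these signs could not turn. The changed floors, the variance model and the letter block leave the difference of a tested probe set as it is. The mean of a gene's probe sets could change only Egfl7. Probe sets called numbered 1594 at an unadjusted p under 0.05 and 0 to 1 with 1 array left out. The exceptions in sign were Acta2, at -0.12 with array weights, -0.23 without sham C and TAC B (chosen after seeing the data) and -0.25 to 0.26 with 1 array left out, and Egfl7, at -0.022 to 0.16 with 1 array left out. Signs also turned for Epb41l4b (-0.089 with array weights, -0.079 to 0.48 with 1 array left out), Kcnj11 (-0.028 with quantile normalization, -0.044 with median centring, -0.014 to 0.017 with 1 array left out), Srf (-0.00071 with quantile normalization), and, with 1 array left out, Isca2 (-0.023 to 0.14) and Eif2d (-0.018 to 0.15), and the cause was not tested. The mural median ran from 0.12, with array weights and without TAC B, to 0.48 without TAC C. The endothelial median ran from -0.020 with median centring to 0.076 without sham B. The median of the wider mural list was 0.14 with a floor of 6, where 5 of its genes remained. With the title letter as a replicate block, 0 members were called. The mural median of 0.35 cannot change with that block, since each letter holds a TAC and a sham array. The titles do not say what the letters mean. Deviations of same-letter arrays correlated at 0.084 for A, -0.0031 for B and -0.17 for C. Of the 6 arrays, 1 correlated best with its own letter. With so few arrays these correlations cannot decide whether same-letter arrays share a round of work. With 3 arrays a group, intervals of the mural members are wide enough to hold log2 differences of 0.70 or more.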
